A study of Mus musculus with 4 samples.

Results

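The 6 genes described here encode heavy chains of myosins, the motor proteins that move along actin. They are Myh9, Myh10, Myh14, Myo5a, Myo6 and Myo18a, 6 of 21866 protein-coding genes with an annotated coding sequence (CDS). They were chosen by the measured peaks themselves, for the number and position of peaks over their many short exons and for the fold enrichment of those peaks. All values of their peaks are therefore given as a description, without a test. Peaks of m6A (N6-methyladenosine, an mRNA modification) were mapped by m6A-seq in the whole brain of mice at 4 weeks of age, strain C57BL/6J by the sample labels. The series' design note gives the animals as Prrc2a flox/flox, that is, with both copies of Prrc2a flanked by recombination sites, and neither source names a Cre driver for these samples. The series holds 2 samples of RNA bound by an antibody against m6A (IP) and 2 of RNA that was not (input), and each IP sample has a list of peaks called against its own input. The lists hold 38533 peaks in replicate 1 and 30134 in replicate 2, each with a fold enrichment, the linear ratio of IP over input given by the authors' peak caller. Peaks of the 2 replicates that have at least 1 bp in common are called shared, and their common bases form a shared interval. The lists carry no read counts, so depth is unknown and no counting interval can be given.

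A myosin heavy chain has a motor head that binds actin and splits ATP, a neck with IQ motifs that hold light chains, and a tail. In conventional myosins of class II the tail is a long coiled-coil rod through which heavy chains pair and assemble into filaments. Myh9, Myh10 and Myh14 encode the heavy chains of non-muscle myosin IIA, IIB and IIC, which drive contraction of the cell cortex, cell division and the shape changes of neurons and glia. Myo5a, Myo6 and Myo18a are unconventional myosins, so the common name of non-muscle myosin heavy chains covers different classes here. Myosin Va carries vesicles and RNA particles towards the plus end of actin filaments, and myosin VI moves towards the minus end. Myosin XVIIIA has an extended N terminus, a neck and a coiled-coil tail. m6A is written on nascent mRNA by the METTL3 and METTL14 methyltransferase at adenosines within the motif DRACH (where H stands for any base but G, D for any base but C, and R for a purine), of which GGAC is a frequent form, and it is commonly found in long internal exons and around stop codons.

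The sequences that show how the peaks of the class II genes lie are given first, on mm10 and read 5′ to 3′ along the mRNA. Exon 22 is 207 nt long in each of the 3 genes and held the first shared interval of the rod-coding part in all of them. In Myh10 it was also the shared interval of highest fold enrichment in replicate 1. DRACH matches are in capitals.
Myh9 exon 22, chr15:77775074-77775280, minus strand: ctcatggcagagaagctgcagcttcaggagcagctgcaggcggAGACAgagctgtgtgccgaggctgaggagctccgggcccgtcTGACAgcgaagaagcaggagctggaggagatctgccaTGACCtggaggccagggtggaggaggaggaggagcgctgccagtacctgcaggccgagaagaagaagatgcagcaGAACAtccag
Myh10 exon 22, chr11:68787338-68787544, plus strand: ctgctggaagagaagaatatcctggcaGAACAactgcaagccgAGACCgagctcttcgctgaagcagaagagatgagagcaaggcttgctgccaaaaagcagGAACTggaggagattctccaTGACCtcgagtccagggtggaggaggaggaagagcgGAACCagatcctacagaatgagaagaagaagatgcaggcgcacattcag
Myh14 exon 22, chr7:44629857-44630063, minus strand: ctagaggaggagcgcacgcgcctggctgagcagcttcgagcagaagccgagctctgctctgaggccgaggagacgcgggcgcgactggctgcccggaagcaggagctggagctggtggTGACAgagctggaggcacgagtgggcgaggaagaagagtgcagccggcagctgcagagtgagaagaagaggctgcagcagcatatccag
GGAC is absent from exon 22 of all 3 genes, and DRACH occurred 4 times in Myh9, 5 times in Myh10 and 1 time in Myh14. Exon 26, 213 nt long, is shown for contrast because it held the only place in exons 22 to 37 where a GGAC lay in a shared interval and at the same aligned codon of all 3 genes. GGAC is in capitals.
Myh9 exon 26, chr15:77771848-77771874: gacagagctggaGGACacgctggactc
Myh10 exon 26, chr11:68793218-68793244: gacagagctggaGGACaccctagacac
Myh14 exon 26, chr7:44627036-44627062: tggggagctcgaGGACactctggattc
A second place in the same exon shows the more common case, in which aligned codons were covered by shared intervals in all 3 genes but not all of them had the motif.
Myh9 exon 26, chr15:77771890-77771916: gaagcagaaacgggatctgggagagga
Myh10 exon 26, chr11:68793176-68793202: gaaacaaaaacgGGACttgagtgagga
Myh14 exon 26, chr7:44627078-44627104: gaagcagcgccgGGACctgggcgagga
Myo18a, in which GGAC was denser inside shared intervals than outside over the whole transcript but not in the CDS after the IQ match, is represented by 2 GGACT sites. They lie in a coiled-coil exon and in the stretch after the stop codon.
Myo18a exon 27, chr11:77843135-77843163: tgttcgggaggtGGACTtcaccaagaagc
Myo18a exon 41, 3′ UTR, chr11:77864937-77864965: tttctgtcagggGGACTttccaggctgtg

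The 6 genes carried 73 peaks over exons in replicate 1 and 74 in replicate 2, which formed 61 shared intervals of the 23901 in the whole series. The number of peaks per gene differed by at most 2 between the replicates. Myh10 had 20 and 18 peaks and 17 shared intervals. Myh9 had 15 and 16 peaks and 13 shared intervals, and Myo18a had 14 and 15 peaks and also 13 shared intervals. These were the genes with the most intervals of the 6. Myh14 followed with 11 and 12 peaks and 9 shared intervals, Myo5a with 8 and 9 peaks and 6 shared intervals, and Myo6 with 5 and 4 peaks and 3 shared intervals. At least 1 shared interval over an exon was present in 45.5% of all protein-coding genes, and at least 3, the number in Myo6, in 14.7%. At least 17, the number in Myh10, were present in 4 genes, or 0.0183%. The other 3 were Pclo and Syne1 with 18 each and Macf1 with 17, genes of synaptic scaffold, nuclear envelope and cytoskeletal linker proteins. Their spliced transcripts measure 20084, 27908 and 23495 nt against 7759 nt for Myh10, which had 2.19 shared intervals per kb. As the genes were chosen by these peaks, nothing further is read from their ranks.

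**Figure D1:**
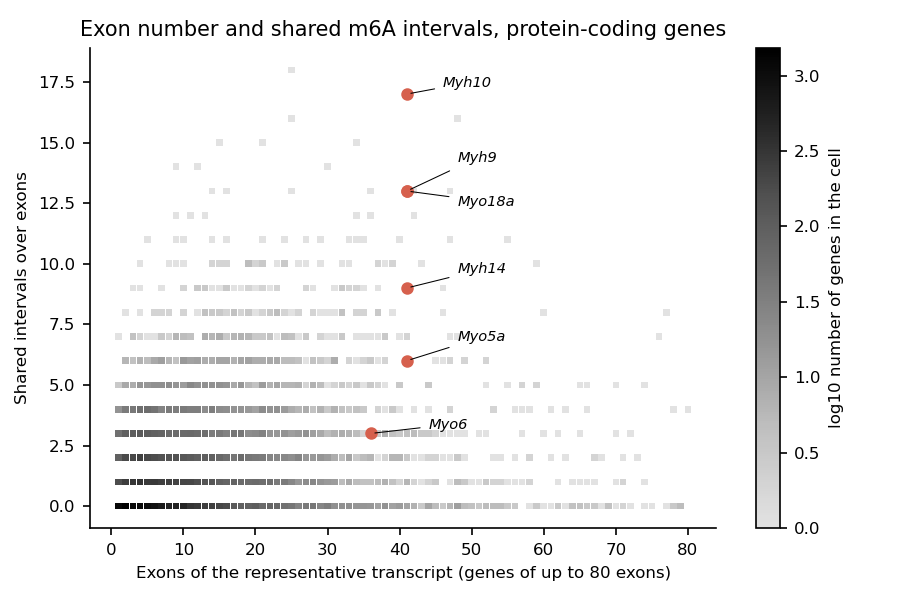
Number of exons in the representative transcript (horizontal axis) against the number of shared m6A intervals over exons (vertical axis) for protein-coding genes with up to 80 exons. Grey cells give the number of genes on a log10 scale and red points the 6 myosin genes, of which Myh10 lies highest with 17 intervals at 41 exons and Myo6 lowest with 3 intervals at 36 exons.

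Exon structure was alike in the 6 genes. Each representative transcript, the one with the longest CDS, had 41 exons, except that of Myo6 with 36. The median internal exon measured 144 nt in Myh9 and in Myh10, 138 nt in Myh14, 141 nt in Myo5a, 101 nt in Myo6 and 128 nt in Myo18a. Between 31 and 36 of the internal exons of each gene were shorter than 200 nt. A peak usually sat on a single exon: 58 of 73 peaks in replicate 1 and 58 of 74 in replicate 2 touched 1 exon of the representative transcript, and 11 and 12 touched more. The other 4 peaks of each replicate touched exons of other transcripts only. The peaks reached past their exons into the introns. In the median peak of the 6 genes, 55.4% of the length in replicate 1 and 38.4% in replicate 2 lay beyond any annotated exon, against 0.638% and 0% over all exonic peaks. The shortest peak of the lists measured 200 nt, so a peak on a single shorter exon had to reach past it. Peaks on longer exons reached past them too. Over Myh10 exon 26, 213 nt long, the peak of replicate 1 measured 519 nt, with 59.0% beyond exons. The part beyond exons is not read as m6A in introns, and its cause was not tested. On the spliced mRNA many of the genomic intervals joined: the 61 shared intervals, of which 59 touched the representative transcripts, formed 30 unbroken runs. Of the 61, none touched an exon of another annotated gene.

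Myh10, the gene of non-muscle myosin IIB, a heavy chain prominent in neurons, lies at chr11:68691559-68816632 on the plus strand. Its shared intervals fell into 3 places: the 5′ end, the exons after the neck, and the stop codon. At the 5′ end an interval at chr11:68691969-68692319 was enriched 1.79-fold in replicate 1 and 1.87-fold in replicate 2. It touched 4 nt of the representative transcript but covered 81.9% of the 5′ UTR of the longest annotated transcript, which has another first exon. Near the start of the CDS, in exon 2, the interval chr11:68699210-68699463 had fold enrichments of 3.07 and 2.04. The remaining head was nearly free of peaks. From exon 3 to exon 21 a single peak was called in each replicate, over exon 21 in replicate 1 (fold enrichment 1.42) and over exon 14 in replicate 2 (1.77), and they did not overlap.

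From exon 22 onward almost every exon of Myh10 had its own peak. Exon 22 had fold enrichments of 4.05 and 2.07, the first of them the highest of the gene. Exon 25 had 3.78 and 2.28, and exon 26 had 3.46 and 2.29. Both replicates placed these exons among the higher ones of the rod. Exon 31, with 249 nt the longest internal exon of this stretch, had 2.91 and 2.17. The lowest value in replicate 1 was at exon 29, 105 nt long, with 1.18 and 1.43, and the lowest in replicate 2 at exon 39, with 1.53 and 1.23. Exons 24 and 33 had a peak in replicate 1 only, with fold enrichments of 2.09 and 2.71, and exon 36, 89 nt long, had none in either replicate. Thus 13 of the 16 exons from 22 to 37 were shared. The interval over the stop codon in the last exon, chr11:68814964-68815447, covered 24.2% of the 3′ UTR and had fold enrichments of 3.03 and 2.46, the highest of the gene in replicate 2.

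**Figure D2:**
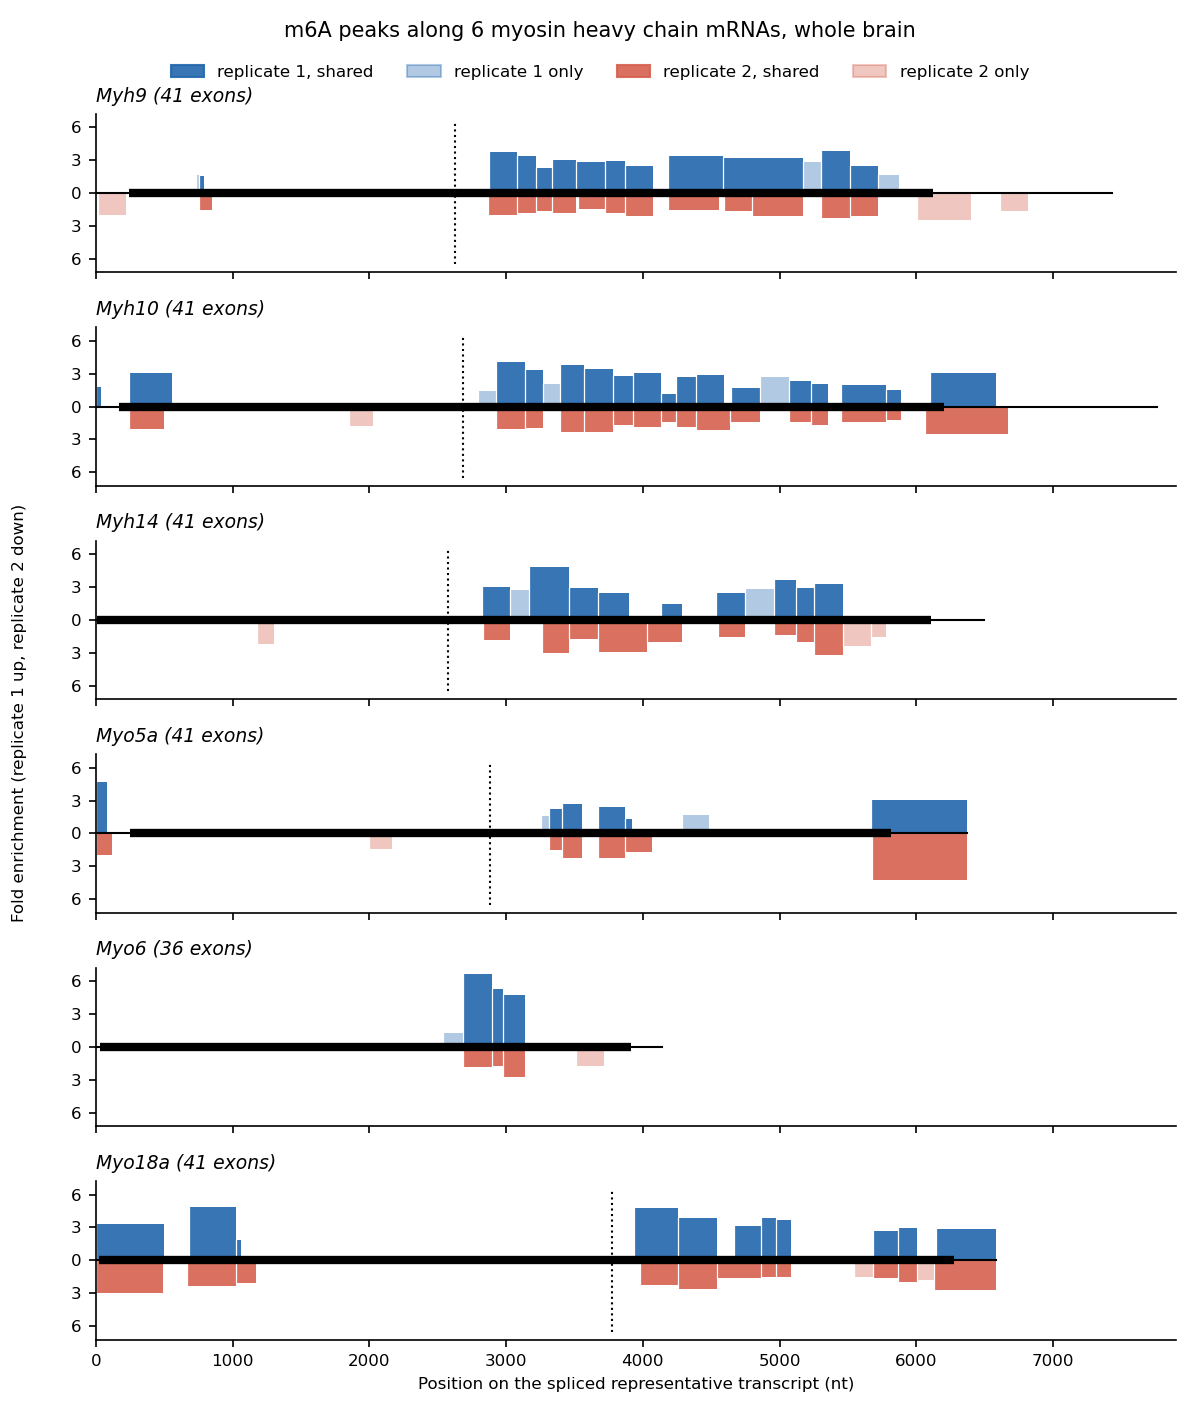
Peaks along the spliced representative transcripts of the 6 genes (horizontal axis, nt from the 5′ end), with height giving the fold enrichment (linear) of replicate 1 upwards and of replicate 2 downwards. Dark bars are peaks shared by the replicates, pale bars peaks of 1 replicate, the thick line the CDS and the dotted line the end of the last IQ match (none found in Myo6). In Myh9, Myh10 and Myh14 the peaks line up side by side after the dotted line, while the stretch before it is nearly empty.

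Myh9, the gene of non-muscle myosin IIA at chr15:77760587-77842175 on the minus strand, showed the same block. Of its exons 22 to 37, 14 were shared. The highest fold enrichments were at exons 36 and 37, joined in 1 interval, with 3.79 in replicate 1 and 2.28 in replicate 2. Exon 22 had 3.73 and 2.03, and the lowest values of the block in both lists were 2.31 in replicate 1 at exon 24 and 1.496 in replicate 2 at exon 26. Exon 29 had no peak in either replicate, and exon 35 had one in replicate 1 only (2.87). In the head, exon 5 had a weak shared interval of 1.55 and 1.51, over 31 nt of the mRNA. The ends of Myh9 differed between the replicates. The first exon had a peak in replicate 2 only (1.99), as did the stop codon (2.42), and no peak of replicate 1 touched either UTR.

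Myh14, the gene of non-muscle myosin IIC at chr7:44605803-44670843 on the minus strand, had the block but little else. Of its exons 22 to 37, 12 were shared and none of exons 1 to 21. The interval over exons 24 and 25 was the highest in replicate 1, with fold enrichments of 4.83 and 3.02, and that over exons 36 and 37 was the highest in replicate 2, with 3.24 and 3.19. Exon 34 showed how far the replicates could stand apart, with 3.60 in replicate 1 and 1.36 in replicate 2. Exon 31 had no peak in either list, although it is the longest internal exon of the stretch and had a peak in both replicates of Myh9 and Myh10. The stop codon and 3′ UTR of Myh14 had no peak in either replicate. Outside the block, peaks of replicate 2 alone lay over exon 10 (2.16), exon 38 (2.34) and exon 39 (1.59).

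Exons 17 to 37 have the same lengths, exon by exon, in the 3 class II genes, so that peaks could be set side by side. None of exons 17 to 21 was shared in any of the 3 genes. Of the 16 exons from 22 to 37, 9 were shared in all 3 genes (22, 25, 26, 27, 28, 30, 32, 34 and 37), 5 in 2 genes and 2 in 1 gene. None lacked a shared interval in all of them. The block of covered exons thus began at the same exon in the 3 paralogs when all shared intervals were used. With peaks of at least 2-fold enrichment in each list, exon 22 stayed shared in Myh9 and Myh10 but not in Myh14 (3.02 and 1.82). In replicate 1 a peak also lay over exon 21 of Myh10 (1.42). The height of the peaks within the block was not alike. Over the 11 exons shared in both Myh9 and Myh10, Spearman's correlation between their fold enrichments was -0.14 in replicate 1 and -0.69 in replicate 2. It was 0.01 and 0.44 between Myh9 and Myh14, over 11 exons, and 0.17 and 0.04 between Myh10 and Myh14, over 10 exons. These are descriptions across exons of the same libraries, in which neighbouring exons can lie under 1 peak.

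**Figure D3:**
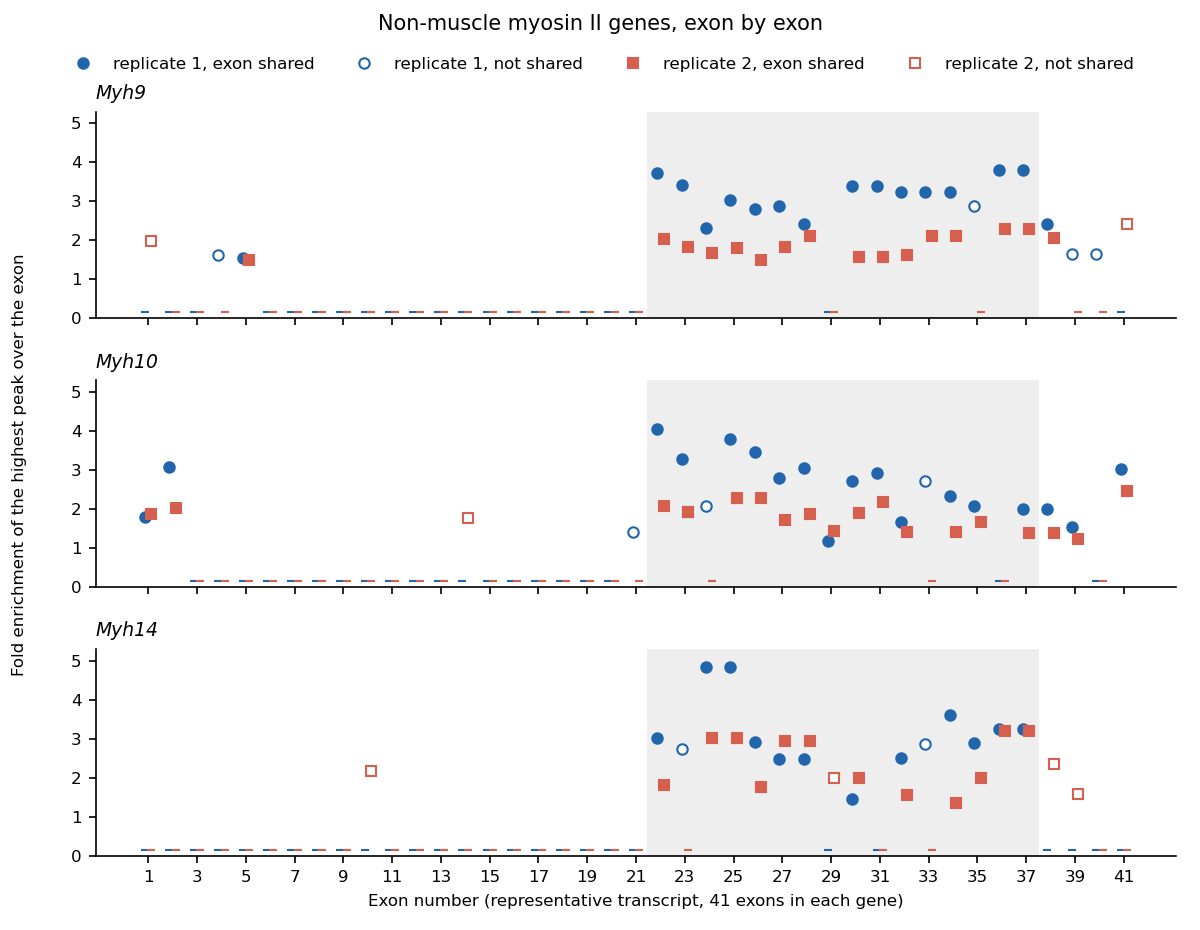
Fold enrichment of the highest peak over each exon (vertical axis, linear) against exon number (horizontal axis) in Myh9, Myh10 and Myh14, with circles for replicate 1 and squares for replicate 2. Filled symbols mark exons with a shared interval, open symbols exons without one, and dashes near 0 a replicate without a peak. The grey band spans exons 22 to 37, in which 14, 13 and 12 of 16 exons were shared.

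The proteins of the 3 paralogs were aligned to compare coverage codon by codon. Of 1956 aligned codons, 474 (24.2%) lay in shared intervals of all 3 genes and 873 (44.6%) in those of none. With peaks of at least 2-fold enrichment in each list, no aligned codon was covered in all 3 genes. All 474 lay after the last residue of the IQ match, where they made up 40.8% of 1163 aligned codons, and none of the 793 aligned codons before it was covered in all 3. Of the parts before and after the end of the IQ match, the more conserved one was the one without common peaks. Residues were identical in all 3 proteins at 73.1% of the aligned positions up to the IQ match and at 48.5% after it. By coverage, they were identical at 50.6% of the positions covered in 3 genes, 44.3% of those covered in 2, 42.7% of those covered in 1 and 73.2% of those covered in none. Codons covered in both Myh9 and Myh10 were 81.2% of those covered in Myh9 and 75.6% of those covered in Myh10. Codons covered in both Myh10 and Myh14 were 56.6% of those covered in Myh10 but 93.2% of those covered in Myh14. Codons covered in both Myh9 and Myh14 were 59.7% of those covered in Myh9 and 91.4% of those covered in Myh14. The smaller coverage of Myh14 was thus almost wholly contained in that of Myh10, and nearly as much in that of Myh9. All of it lay after the IQ match, where shared intervals covered 73.5% of the CDS of Myh10 and 73.1% of that of Myh9. By CDS, shared intervals covered 47.0% of Myh10 (55.7% by replicate 1 alone, 51.4% by replicate 2), 43.9% of Myh9 (50.1%, 47.1%) and 27.6% of Myh14 (35.4%, 38.7%). Myh10 exceeded the mean of its paralogs by 11.2 percentage points, and by 3.75 points with peaks of at least 2-fold enrichment only. The difference between Myh10 and Myh9 was smaller than that between the replicates of Myh10, whereas Myh14 was lowest in both replicates.

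Reads that fit more than 1 paralog could in principle place a peak on several of them. The authors kept uniquely mapped reads, of at least 35 nt. Stretches of 35 nt that a class II gene had in common with another of the 3 or with the smooth muscle heavy chain Myh11 began at 117 positions of Myh9, 95 of Myh10 and 15 of Myh14. All of these positions were in exons 1 to 21, and none touched a shared interval. Outside these genes, Rab8a had 3 such stretches in common with Myh9, and these touched no shared interval either. The longest stretch, identical in Myh9 and Myh10, had 122 nt. No stretch of 35 nt was in common between Myo5a, Myo6 or Myo18a and the representative transcript of any other protein-coding gene. Only spliced representative transcripts were compared, and no introns or reads were searched. An effect of read mapping on where peaks were or were not called was not tested.

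Myo5a, the gene of myosin Va at chr9:75071015-75223688 on the plus strand, had its highest value in each replicate at an end of the mRNA. The interval over the first exon, chr9:75071182-75071463, was enriched 4.67-fold in replicate 1 and 1.96-fold in replicate 2. That over the stop codon, chr9:75217853-75218670, had 3.04 and 4.28 and covered the whole 3′ UTR of the representative transcript, 557 nt. In contrast to the class II genes only 4 intervals lay between these ends, over exons 23, 24, 26 with 27, and 28, all of them after the IQ motifs, and their fold enrichments ran from 1.29 to 2.66 in replicate 1 and from 1.54 to 2.26 in replicate 2. No shared interval touched the CDS up to the last IQ match. The longest transcript of Myo5a has a 3′ UTR of 5695 nt, of which shared intervals covered 11.9%. A further peak of replicate 1, chr9:75079438-75079669 with a fold enrichment of 4.19, lay wholly in an intron and is not counted among the exonic peaks.

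Myo6, the gene of myosin VI at chr9:80165031-80311729 on the plus strand, had the fewest peaks and the highest of the 6 genes in replicate 1. All 3 shared intervals were on neighbouring exons of the tail-coding part and formed a single run of 449 nt on the mRNA. Exon 26 was enriched 6.66-fold in replicate 1 and 1.83-fold in replicate 2. Exon 27 had 5.32 and 1.70, and exon 28 had 4.77 and 2.73. Exon 26 was thus the highest in replicate 1 and exon 28 in replicate 2. In replicate 1 these peaks stood at percentiles 97.7, 92.1 and 87.3 of the list, and in replicate 2 at percentiles 29.3, 21.7 and 72.2. The stop codon of Myo6 had no peak. In its long 3′ UTR, present in 4 coding transcripts, only replicate 1 had a peak (2.54).

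Myo18a, the gene of myosin XVIIIA at chr11:77763246-77865980 on the plus strand, differed from the others by intervals in its long first coding exon. The interval over the start codon, chr11:77777235-77777778, had fold enrichments of 3.33 and 2.96, and the next one in the same exon, chr11:77777970-77778366, had 4.85 and 2.33. The strongest peak of the 6 genes in replicate 2, 4.60, with 3.52 in replicate 1, was at chr11:77812146-77812431, over an internal exon that 2 other transcripts of the gene have and the representative lacks. After the IQ match, exons 24 to 28, 30 to 32, 38 and 39 were shared, with values between 2.68 and 4.76 in replicate 1 and between 1.49 and 2.61 in replicate 2. The stop codon interval, chr11:77864701-77865194, had 2.83 and 2.69. The stretch of the representative transcript between exon 2 and the end of the neck had no shared interval.

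The 6 genes had in common that the later part of the CDS was covered more than the earlier part. With the CDS split at its middle, shared intervals covered 76.5% of the later part and 11.4% of the earlier part in Myh9, 77.1% and 16.9% in Myh10, and 48.7% and 6.56% in Myh14. In Myo5a they covered 22.8% and 0%, in Myo6 23.1% and 0%, and in Myo18a 45.9% and 27.0%. The order was the same in both replicates taken alone. Among the 1574 genes with at least 20 exons and a shared interval, which are 63.7% of the 2470 genes of that exon number, the later part was covered more in 53.9%, and the medians over these genes were 8.89% and 4.00%. Within exons 22 to 37 of the class II genes, exons under 200 nt were covered less than longer ones in Myh9 but more in Myh10 and Myh14. In shared intervals lay 82.6% of their bases in Myh9, 84.1% in Myh10 and 74.4% in Myh14, against 95.1%, 79.4% and 52.9% of the exons from 200 nt. Over all internal exons the shorter ones were covered less in each class II gene: 29.0% against 77.7% in Myh9, 31.5% against 79.3% in Myh10 and 24.7% against 45.7% in Myh14. The order was the same in Myo6, 7.31% against 48.8%, and in Myo18a, 25.6% against 30.3%. It was the reverse in Myo5a, 11.3% against 3.65%. Exons 22 to 37 held 6 exons from 200 nt in each gene, and exons 2 to 21 held 1 in Myh9, 1 in Myh10 and 0 in Myh14. The stop codon was in a shared interval in Myh10, Myo5a and Myo18a, that is in 3 of 6 genes, against 28.4% of genes with at least 20 exons.

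**Figure D4:**
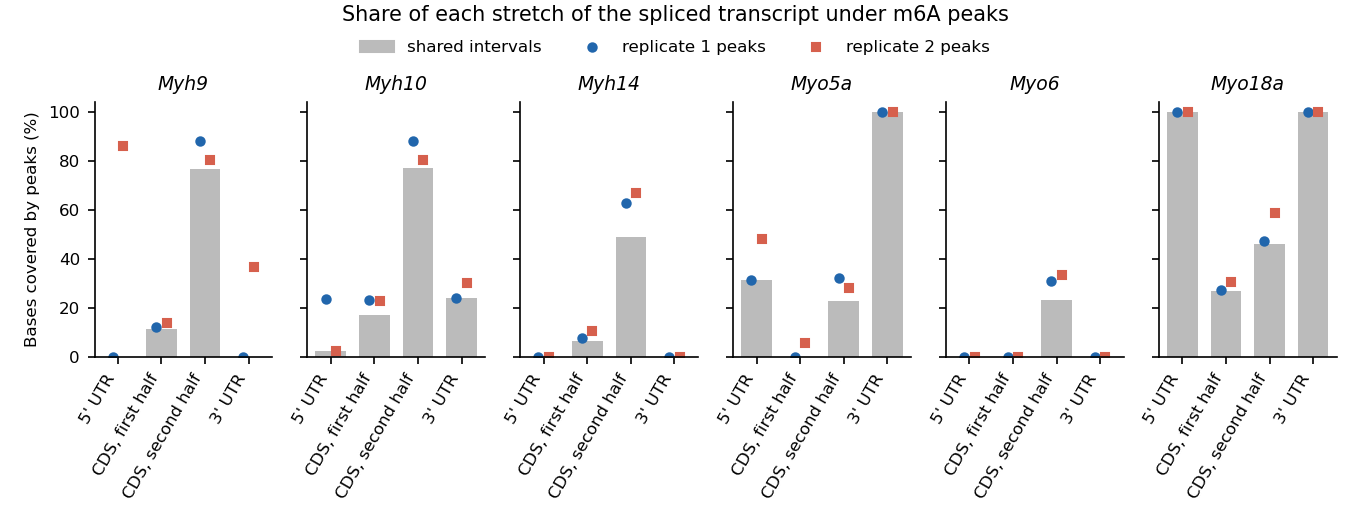
Share of the bases of the 5′ UTR, the CDS before and after its middle, and the 3′ UTR of each representative transcript (vertical axis, %) under shared intervals (bars), peaks of replicate 1 (circles) and peaks of replicate 2 (squares). The later part of the CDS exceeds the earlier part in each gene, from 22.8% against 0% in Myo5a to 77.1% against 16.9% in Myh10, and only Myh10, Myo5a and Myo18a have shared coverage of the 3′ UTR.

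Fold enrichments were moderate and higher in replicate 1. Over 59 pairs of peaks that were each other's best match, the median was 3.02 in replicate 1, with a range of 1.18 to 6.66, and 1.91 in replicate 2, with a range of 1.23 to 4.60. Replicate 1 was higher in 51 of 59 pairs (86.4%), against 77.9% of all 22457 pairs, whose medians were 3.03 and 2.33. The myosin peaks were thus near the middle of the distribution in replicate 1 and lower in replicate 2. The median peak of Myh10, 2.79 and 1.88, was at percentile 43.2 of all pairs in replicate 1 and 25.8 in replicate 2. That of Myh9, 2.96 and 1.83, was at percentiles 47.9 and 23.1, and that of Myh14, 2.92 and 1.98, at 47.0 and 31.8. The median peaks of the class II genes thus lay below the middle of all pairs in both replicates. The number of their peaks is not read as a trait of the class, since the genes were chosen in part by it. Spearman's correlation between the replicates was 0.41 over the 59 myosin pairs and 0.63 over all pairs, as a description over peaks of the same 2 libraries. Of the myosin peaks, 82.2% in replicate 1 and 81.1% in replicate 2 were shared, against 60.01% and 76.95% of all peaks. These sets are unlike, since the myosin peaks are exonic only. Among all peaks, 33239 of 38533 were exonic in replicate 1 and 28924 of 30134 in replicate 2. The myosin genes were also chosen by the measured peaks, so the higher shares are not read as better recovery. The 13 unshared myosin peaks of replicate 1 had a median fold enrichment of 2.09, and the 14 of replicate 2 of 1.75.

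**Figure D5:**
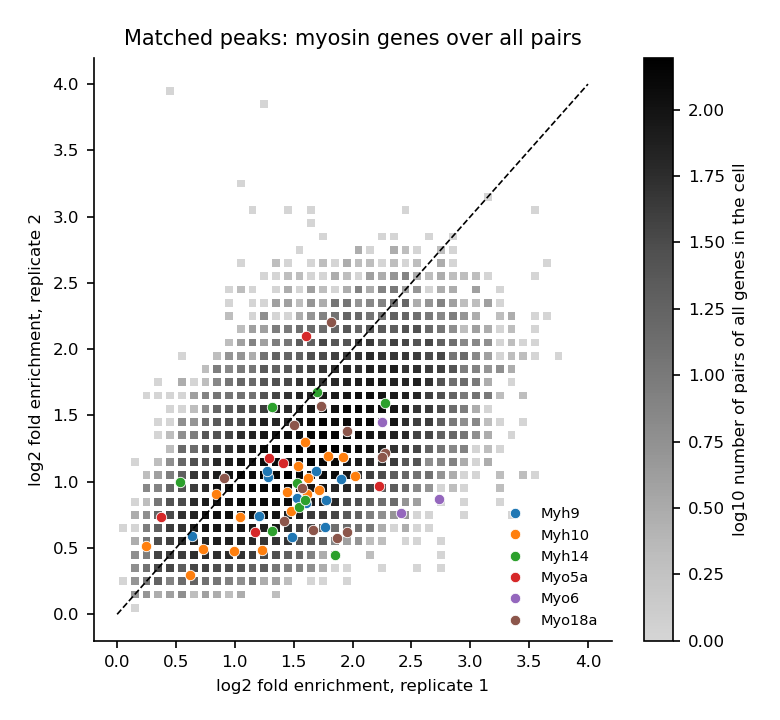
log2 fold enrichment of matched peaks in replicate 1 (horizontal axis) and replicate 2 (vertical axis), with coloured points for the 59 pairs of the 6 genes and grey cells for all 22457 pairs (number of pairs on a log10 scale). The dashed line marks equal values, and 51 of 59 coloured points lie below it, with the highest value of replicate 1 in Myo6.

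GGAC was not denser inside the shared intervals than outside in 5 of the 6 genes, whereas the looser motif DRACH was denser inside in 4 of them. On the spliced transcripts GGAC occurred 5.59 times per kb inside and 5.73 times per kb outside shared intervals in Myh10, 5.42 and 7.22 in Myh9, and 3.56 and 5.82 in Myh14. Myo18a was the exception with 10.3 inside and 7.05 outside. Its excess lay in the CDS up to the IQ match, with 11.8 inside and 5.51 outside. In the CDS after the IQ match the values were 9.75 inside and 11.2 outside. The ratio of inside to outside over the 6 genes was 1.12, and 0.930 without Myo18a, against 1.58 over the 9948 genes with a shared interval and 1.38 over those with at least 20 exons. The longer form GGACT was found inside shared intervals 10 times in all, 6 of them in Myo18a, 2 in Myh9 and 2 in Myh10. For DRACH the ratio was 1.19 over the 6 genes, 1.25 in Myh9, 1.18 in Myh10, 1.29 in Myo5a and 1.44 in Myo18a, but 0.878 in Myh14 and 0.573 in Myo6. Among shared intervals with 100 to 300 nt on the mRNA, 25 of 44 (56.8%) of the 6 genes held a GGAC, against 67.5% of 10636 intervals of other genes, 53.8% of 200 nt tiles of all representative transcripts and 61.1% of 200 nt tiles of their coding sequences. A match to the motif is not a measured m6A site, and intervals without it may hold other forms: of 59 intervals, 25 had no GGAC and 2 no DRACH. Along the alignment of the class II genes, 25 places in exons 22 to 37 had a GGAC in a shared interval, 16 of them in 1 gene, 8 in 2 and 1 in all 3. Of the 13 places that were covered in all 3 genes, 9 had the motif in 1 gene only.

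Base composition differed between covered and uncovered parts as well. Purines made up 65.1% of the bases inside and 52.2% of those outside shared intervals in Myh9, 62.6% and 53.5% in Myh10, 65.3% and 54.3% in Myh14, and 71.3% and 53.9% in Myo6. The difference was small in Myo5a, 55.7% and 54.5%, and lay between these in Myo18a, 59.0% and 53.1%. Over all genes with a shared interval the shares were 53.1% and 50.2%. The tail-coding part is itself rich in purines, 64.3% in Myh10 after the IQ match and 52.9% up to it. Within that part covered bases of Myh10 had 65.1% and uncovered bases 61.9%. Among the 48 exons from 22 to 37 of the 3 paralogs, the 3 without a peak in either replicate (Myh9 exon 29, Myh10 exon 36 and Myh14 exon 31) had 50.5%, 58.4% and 61.8% purines. The 39 shared exons had 60.6% to 69.8%, and the 6 exons with a peak in 1 replicate 59.0% to 66.1%, so the ranges overlapped. The part of base composition in the position of the peaks was not tested.

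Other myosins and partners were read from lists of genes. Of 11 muscle and smooth muscle heavy chains, 5 had a shared interval: Myh7, a slow muscle and heart form, had 3, and Myh11, Myh3, Myh6 and Myh7b had 1 each. In these 5 genes too the shared bases in the CDS were all in its later part, from 2.61% of it in Myh6 to 22.9% in Myh7, though Myh6 and Myh7 are near-identical copies whose values are uncertain. Of 21 other unconventional myosins, 8 had a shared interval. Myo10, a filopodial motor, had 7, Myo9a and Myo9b had 5 each, and Myo5b, a paralog of Myo5a, had 3. The later part of the CDS was not covered more in all of these. Shared intervals covered 22.2% of the later and 25.8% of the earlier part in Myo9a, and 15.5% and 14.8% in Myo10. The shares were 43.2% and 8.33% in Myo9b, and 10.5% and 0% in Myo5b. Of 14 light chains and regulators of non-muscle myosin II, 10 had one. The Cdc42-binding kinase gene Cdc42bpb had 9, the myosin phosphatase subunit gene Ppp1r12b had 7, and Cdc42bpa, Ppp1r12a and the kinase gene Rock2 had 6 each, while Rock1 had 1. The light chain genes had 2 (Myl6, Myl9), 1 (Myl12b) or none (Myl12a, Myl6b). Of 13 light chains, adaptors and cargo partners of Myo5a and Myo6, 11 had one, led by the myosin VI receptors Optn with 5 and Tax1bp1 with 4 and by the calmodulin gene Calm2 with 4. All 4 shares stand against 45.5% of all protein-coding genes, and the medians were 0, 0, 1.5 and 2 shared intervals a gene. The muscle heavy chains and the other unconventional myosins all have at least 20 exons, and the share among genes of that exon number was 63.7%. In bulk tissue, a gene without a peak may have little m6A, little RNA or few cells that express it, and these cannot be told apart here.

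Genes whose coverage was most like that of Myh10 were sought among 2283 genes with at least 20 exons, by the distance between the covered shares of the 5′ UTR, CDS and 3′ UTR. With 2.44%, 47.0% and 24.2% in Myh10, the nearest were Kif1c (0%, 46.4% and 21.9%), a kinesin, Ubtf (0%, 44.7% and 26.1%), a factor of ribosomal RNA transcription, and Numa1 (0%, 51.3% and 24.8%), a coiled-coil protein of the spindle pole. Shank2, a postsynaptic scaffold, and Trank1 followed. Their distances were 3.44, 3.89, 4.97, 5.86 and 8.35 percentage points. These distances hold for the representative transcripts only: in the longest transcript of Myh10 the covered share of the 5′ UTR was 81.9% in place of 2.44%. They have 21 to 25 exons against 41 in Myh10, and 4 to 8 shared intervals against 17. Joined on the spliced mRNA, these formed 3 to 6 runs, against 8 in Myh10.

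The tissue label was checked against the presence of peaks, which shows only in part which genes are expressed. Shared intervals were present in 5 of 5 markers of neurons, 4 of 5 of astrocytes, 5 of 5 of oligodendrocytes, 4 of 4 of microglia and 4 of 5 of endothelium and mural cells. They were present in 1 of 5 markers of skeletal and heart muscle (Tnnt2) and 0 of 3 of liver, in which 1 gene had an unshared peak in each replicate. The 6 myosin genes are used by several of these cell types, and the peaks do not show in which of them the marked RNA was.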

How the data were processed

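m6A-seq data of mouse whole brain were used as deposited: 2 IP samples, each with a list of peaks, and 2 input samples that enter only through the fold enrichment. Per the methods of the study, adapters were trimmed with Cutadapt, reads under 35 nt or with ambiguous bases were dropped with Trimmomatic, and reads were aligned with TopHat to mm10 (TopHat2 2.0.9 in the submitters' processing notes), keeping unique reads with a mapping quality of at least 20. The authors called peaks with MACS2 for each IP replicate against its own input, without a fragment model, with all duplicates kept and at a false discovery rate below 0.05. The deposited fold enrichment is a linear ratio of IP over input from this caller. As the caller works on the genome, 1 marked stretch over several short exons can be listed as several peaks, and kept duplicates can raise the ratio where RNA is scarce. The lists hold no counts, p-values or strand.

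Peaks, as listed with both ends counted, were overlapped with exons of GENCODE M21 on GRCm38, which has the chromosome sequences of mm10. Coverage, motifs and composition were computed on spliced transcripts in Python 3.11.15 with scipy 1.17.1. Translated CDSs were aligned with MAFFT 7.526, and the last match to an IQ motif pattern marked the end of the neck, a split chosen after the peaks were seen. Overlaps were checked against bedtools 2.31.1 and on simulated peaks. Named genes were the 6 members, up to 4 genes per list with the most shared intervals, and the 5 genes nearest to Myh10, and the other genes named were chosen after their values were seen. The 6 genes and the lists were chosen with earlier results of these data known. No test was run, since the genes were selected on the same peaks. The labels do not say whether the replicates are separate animals. Alternatives were each replicate alone, overlap of at least 50% of both peaks, at least 2-fold enrichment, merging of peaks within 100 bp, exons of the representative transcript only, the longest transcript, and the motifs GGACT and DRACH.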

Additional observations from a re-analysis of the deposited data

How the results depend on the processing

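Only 2 replicates stand behind each value, and depth is unknown. With at least 2-fold enrichment in each list the shared intervals of the 6 genes fell from 61 to 24 and the mean number of peaks per replicate from 73.5 to 43, the shared share of the spliced transcripts was 16.5% in place of 30.5%, Myh10 exceeded the mean of its paralogs by 3.75 in place of 11.2 percentage points of the CDS, and no aligned codon was covered in all 3 class II genes (0% in place of 24.2%). With overlap of at least 50% of both peaks the values were 55 intervals, 27.8% of the transcripts, 14.5 percentage points, 18.3% of aligned codons and a GGAC ratio of 1.04. With the longest transcripts 25.8% was covered. Intervals that touch on the spliced mRNA, joined as a choice made after the data were seen, gave 30 runs.

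With either replicate alone the 6 genes had 73 to 74 peaks, 35.3% to 38.1% of the transcripts covered, a GGAC ratio of 1.12 to 1.21, 8.54 to 12.99 percentage points for Myh10 over its paralogs, 29.9% to 34.97% of aligned codons in all 3 genes and a median fold enrichment of 1.87 to 2.87. The GGAC ratio of 1.12 was 1.19 with DRACH and 1.09 with GGACT. Leaving out 1 gene at a time, also chosen after the data were seen, gave 1.25 without Myh9, 1.23 without Myh14 and 0.930 without Myo18a, which turns its direction, and the cause was not tested. Merging peaks within 100 bp and using exons of the representative transcript only left 60 and 59 shared intervals. No paired analysis was possible because the results come from peak lists without a test between groups.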
